A study of Mus musculus with 12 samples.

Results

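Genes that mark the non-parenchymal cells lining the liver sinusoid, 31 in all, were followed over 12 mouse RNA-seq libraries: 18 markers of sinusoidal endothelial cells, from Stab1 to Wnt2, and 13 markers of hepatic stellate cells, from Lrat to Ngfr. They were picked by name, as the rows of the count table whose gene name equals a marker, and each of the 31 occurred in exactly 1 of the 56748 rows. The study asked what the lipase ABHD6 (abhydrolase domain containing 6), an enzyme that hydrolyses monoacylglycerols, does in hepatocytes. It sequenced poly-A-enriched RNA from 4 groups of 3 libraries.

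The GFP livers and the ABHD6 OE livers came from C57BL/6 mice fed for 8 weeks a high fat diet (60% of calories). Per the study's design text, overexpression was by tail-vein injection of AAV8-TBG-ABHD6, in which the TBG promoter restricts expression to hepatocytes, so the endothelial and stellate cells of these livers are not the cells meant to carry the transgene. The labels give the GFP livers as wild type and name no vector for GFP. The primary hepatocytes were labelled as untreated, wild type with a scrambled siRNA (siScramble) or with ABHD6 knocked down by siRNA (siABHD6). Their time in culture, the diet and age of the donor mice and whether the 3 libraries of a group came from separate isolations are not stated in the labels. Sex and age of the liver mice are likewise not stated, and p-values measure the spread between these libraries, which in culture may be technical.

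Sinusoidal endothelial cells are the fenestrated lining of the hepatic capillary. They carry a dense set of scavenger and lectin receptors that clear macromolecules from blood, and they send BMP and WNT ligands to the neighbouring hepatocytes. Stellate cells lie between that lining and the hepatocytes, where they store retinyl esters, make matrix and growth factors and, when activated, turn into collagen-producing myofibroblasts. Neither cell type is a hepatocyte, so in whole liver these genes read composition, and in a hepatocyte preparation they read what is left of other cells or what the hepatocytes themselves transcribe. In bulk RNA, fewer cells of a type and less RNA per cell cannot be told apart.

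Library totals ran from 12295733 to 16234658 counts. Levels of single genes are given as normalised CPM, counts scaled to library sizes corrected by TMM (trimmed mean of M values) over all 12 libraries, so that livers and cultures stand on 1 scale. Abhd6 itself was at 57.1, 51.0 and 32.2 normalised CPM in GFP livers 1 to 3 and at 240.4, 136 and 201 in ABHD6 OE livers 1 to 3. In siScramble cultures 1 to 3 it was at 27.9, 25.7 and 25.6, and in siABHD6 cultures 1 to 3 at 3.78, 4.06 and 3.87, so both pairs of groups were apart in the labelled direction. Spread between replicates was far larger in livers: edgeR put the biological coefficient of variation at 28.1% there and at 4.93% in the cultures. GFP liver 3 and ABHD6 OE liver 1 stood apart from the other livers: chi-square per gene against the other libraries of the group was 235 and 240 for GFP liver 3, where GFP livers 1 and 2 differed by 17.5. For ABHD6 OE liver 1 it was 145 and 111, where ABHD6 OE livers 2 and 3 differed by 33.2. The 11 hepatocyte genes examined, Alb and Apob among them, were all detected in the cultures, at a summed 10.9% of the GFP liver level after scaling. All 11 were called lower in siScramble cultures than in GFP livers, at a median log2 fold change of -3.98. Of all genes tested there, edgeR called 36.9% lower. Detection of these 11 genes is therefore no test of the labelled cell type.

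In liver, both sets were strongly present. The 18 endothelial genes together took 494, 539.97 and 324 CPM of the library total in GFP livers 1 to 3, and 448, 503 and 397 in ABHD6 OE livers 1 to 3. The 13 stellate genes together took 499, 556 and 163 CPM in GFP livers and 334, 539.7 and 416 in ABHD6 OE livers. GFP liver 3 was the lowest of the 6 in both sums. As group means, the endothelial sum was 453 ± 114 in GFP and 449 ± 52.9 in ABHD6 OE livers, and the stellate sum 406 ± 213 and 430.0 ± 103 (SD, n = 3 each). In the cultures, the endothelial sum was 46.7, 41.8 and 42.7 CPM with siScramble and 42.7, 40.5 and 40.7 with siABHD6. The stellate sum was 26.7, 27.7 and 26.6 with siScramble and 31.3, 28.3 and 30.9 with siABHD6.

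The balance of the sets also differed between libraries. The stellate sum divided by the endothelial sum was 1.01 and 1.03 in GFP livers 1 and 2 and 1.07 and 1.05 in ABHD6 OE livers 2 and 3. It was 0.503 in GFP liver 3 and 0.746 in ABHD6 OE liver 1, the livers that also stood apart over all genes. In the 6 cultures it lay between 0.573 and 0.759.

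**Figure D1:**
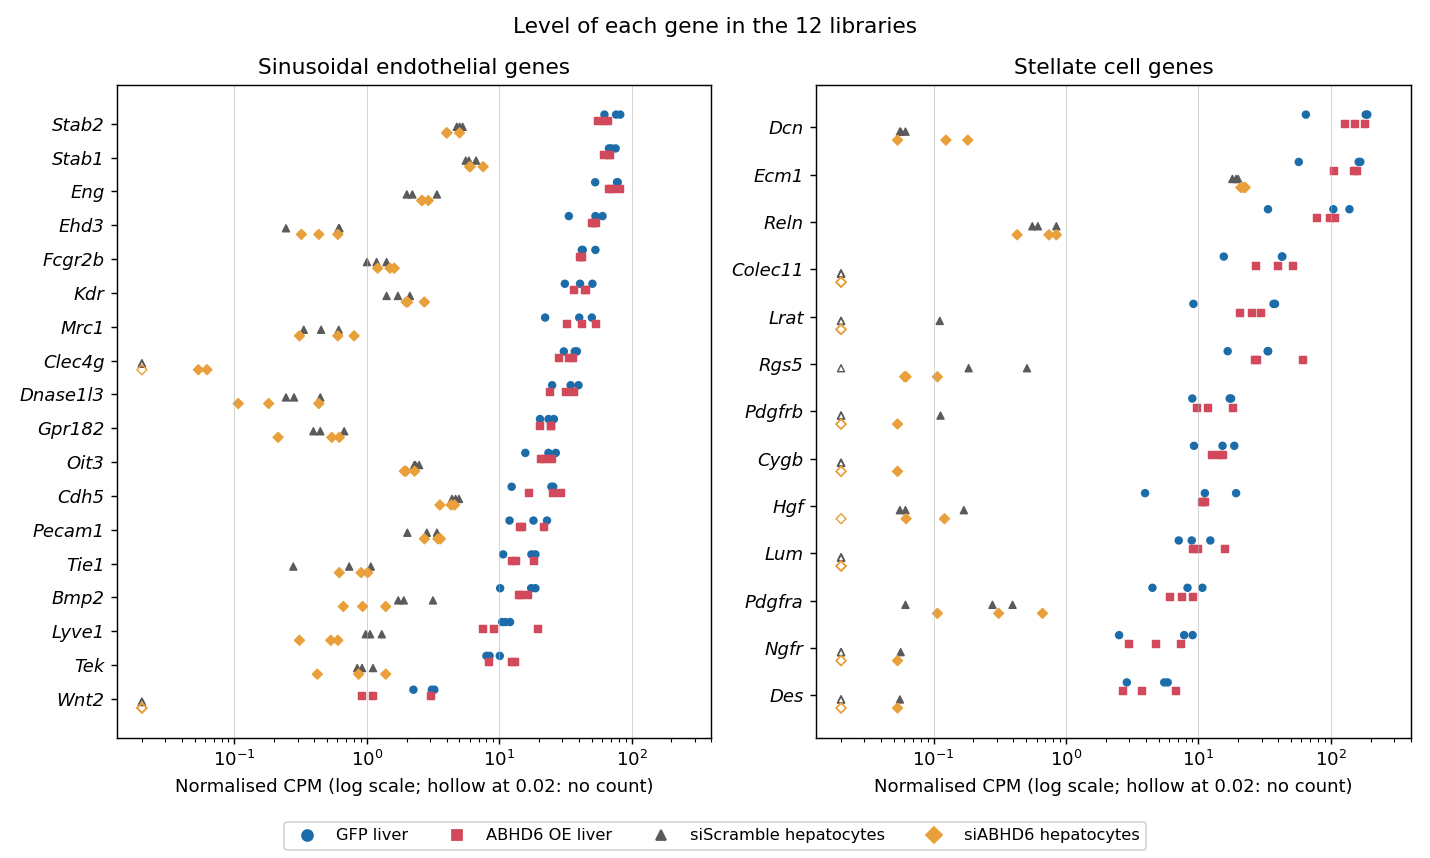
Level of each of the 31 genes in each library, in normalised CPM on a log axis, with 1 point per library, coloured by group, and hollow points at 0.02 for libraries with no count. The livers lie to the right of the cultures for every gene, and most stellate genes have no count in at least 1 culture.

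Stab1 (stabilin 1, chr14:30860970-30890598 in mm39), a scavenger receptor for modified lipoproteins and matrix fragments, was at 75.7, 70.3 and 67.4 normalised CPM in GFP livers and at 66.5, 67.7 and 61.4 in ABHD6 OE livers. Stab2 (chr10:86677062-86843889), its paralogue and the main hyaluronan clearance receptor, was at 76.3, 82.1 and 62.3 in GFP livers and at 65.9, 61.6 and 55.2 in ABHD6 OE livers. Fcgr2b (chr1:170786186-170804116), the inhibitory Fc receptor by which these cells take up immune complexes, was at 42.7, 53.3 and 42.1 in GFP livers and 42.2, 41.4 and 40.3 in ABHD6 OE livers. Over the 6 livers, the coefficient of variation was 6.90% for Stab1, 14.9% for Stab2 and 10.9% for Fcgr2b. Gpr182 at 10.4%, Clec4g at 11.8% and Eng at 14.7% lay in the same range, while Wnt2 was at 45.6%.

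Clec4g (chr8:3757064-3770651), the C-type lectin known as LSECtin, was at 37.2, 38.6 and 30.8 normalised CPM in GFP livers and at 35.7, 28.1 and 33.6 in ABHD6 OE livers. Lyve1 (chr7:110449814-110462446), a hyaluronan receptor shared with lymphatic endothelium, was at 12.1, 11.1 and 10.5 in GFP livers and at 9.06, 19.4 and 7.51 in ABHD6 OE livers, with ABHD6 OE liver 2 the highest of the 6. The mannose receptor Mrc1, which macrophages also carry, averaged 37.5 ± 14.1 in GFP and 42.5 ± 10.4 in ABHD6 OE livers. The endocytic recycling protein Ehd3 averaged 49.0 ± 13.9 and 51.3 ± 1.97, the chemokine-scavenging receptor Gpr182 23.3 ± 2.79 and 23.0 ± 2.57, and the secreted nuclease Dnase1l3 33.1 ± 7.41 and 30.8 ± 6.16 (SD, n = 3). Group ranges overlapped for each of these.

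Among vascular receptors and junction proteins, Eng (endoglin, a TGF-β and BMP co-receptor, chr2:32536607-32572681) was the highest of the endothelial set per length, at 17.2 normalised CPM per kilobase in GFP livers. Its values were 77.6, 78.5 and 53.1 normalised CPM in GFP livers and 70.2, 81.3 and 66.6 in ABHD6 OE livers. Eng overlaps Fpgs on the opposite strand, which averaged 2097 counts in GFP livers, and since the strand setting of the counting is not given in the sources used here, reads of the overlapping stretch cannot be assigned with certainty. Cdh5 (VE-cadherin, the adherens junction protein of endothelium, chr8:104828257-104871143) was at 25.5, 24.8 and 12.4 in GFP livers and at 25.4, 29.1 and 16.5 in ABHD6 OE livers. GFP liver 3 and ABHD6 OE liver 3 were the low ones. Oit3 (chr10:59258780-59277600), a secreted protein with a zona pellucida domain, was at 26.7, 23.5 and 15.7 in GFP livers and 20.4, 24.7 and 21.8 in ABHD6 OE livers.

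The VEGF receptor Kdr averaged 40.9 ± 9.64 normalised CPM in GFP and 41.6 ± 4.67 in ABHD6 OE livers. Pecam1, a platelet and endothelial adhesion molecule, averaged 17.7 ± 5.50 and 16.9 ± 3.997. The angiopoietin receptor Tek averaged 8.85 ± 1.10 and 11.3 ± 2.64, and its co-receptor Tie1 15.7 ± 4.33 and 14.6 ± 3.20 (SD, n = 3).

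The angiocrine ligands were among the lower genes of the set. Bmp2 (chr2:133394079-133404805), a BMP ligand by which endothelium drives hepcidin in hepatocytes, was at 17.4, 18.8 and 10.2 normalised CPM in GFP livers and at 16.4, 13.9 and 14.6 in ABHD6 OE livers. Wnt2, a WNT ligand of pericentral endothelium, was the lowest of the set per length, at 1.27 normalised CPM per kilobase in GFP livers, and averaged 2.86 ± 0.534 normalised CPM there and 1.69 ± 1.18 in ABHD6 OE livers.

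In the stellate set, matrix genes led. Per length, Ecm1 was at 51.1 normalised CPM per kilobase in GFP livers, Dcn at 24.96 and Colec11 at 20.8, followed by Cygb at 6.17 and Rgs5 at 6.13. Dcn (decorin, a small leucine-rich proteoglycan of collagen fibrils, chr10:97315471-97354005) was at 184, 189 and 64.8 normalised CPM in GFP livers and at 127, 181 and 152 in ABHD6 OE livers. Ecm1 (chr3:95641459-95646881), a secreted matrix glycoprotein that other liver cells can also make, was at 163, 167 and 57.3 in GFP livers and at 105, 155 and 147 in ABHD6 OE livers. In both genes GFP liver 3 was the lowest library and ABHD6 OE liver 1 the next lowest.

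Reln (reelin, chr5:22089452-22549700), a large secreted glycoprotein, was at 105, 138 and 33.5 normalised CPM in GFP livers and at 77.8, 97.3 and 107 in ABHD6 OE livers. Colec11 (chr12:28644172-28673376), a soluble collectin of innate immunity, was at 42.7, 43.0 and 15.6 in GFP livers and at 27.0, 51.2 and 39.3 in ABHD6 OE livers. Cygb (cytoglobin, the haem protein of quiescent stellate cells, chr11:116536421-116545139) was at 15.2, 18.7 and 9.26 and at 12.6, 15.2 and 14.2. GFP liver 3 again held the lowest value in all 3 genes. The proteoglycan Lum averaged 9.44 ± 2.64 in GFP and 11.6 ± 3.69 in ABHD6 OE livers, and Lrat, the enzyme that esterifies retinol for storage, averaged 28.0 ± 16.3 and 25.05 ± 4.63 (SD, n = 3).

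Of the contractile and signalling genes, Rgs5 (chr1:169483070-169523382), a GTPase activator of pericytes, was at 33.4, 33.7 and 16.6 normalised CPM in GFP livers and at 27.7, 60.7 and 26.4 in ABHD6 OE livers, with ABHD6 OE liver 2 far above the rest. Hgf (hepatocyte growth factor, chr5:16758493-16825150) was at 11.2, 19.3 and 3.96 in GFP livers and at 10.8, 11.1 and 10.5 in ABHD6 OE livers. Pdgfra (a PDGF receptor, chr5:75312953-75358876) was at 8.28, 10.7 and 4.50 and at 6.10, 9.08 and 7.42. The 3 ABHD6 OE livers lay inside the range of the GFP livers for both Hgf and Pdgfra. Pdgfrb, the PDGF receptor that stellate cells use most, averaged 14.6 ± 4.89 and 13.2 ± 4.44, the intermediate filament gene Des 4.75 ± 1.63 and 4.38 ± 2.08, and the neurotrophin receptor Ngfr 6.46 ± 3.47 and 5.01 ± 2.20.

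The comparison of ABHD6 OE with GFP livers asks whether more ABHD6 in hepatocytes goes with a change in these neighbouring cells. None of the 31 genes passed the test (edgeR quasi-likelihood test, Benjamini-Hochberg adjusted p under 0.05), and the ranges of the groups overlapped for 31 of 31. Abhd6 itself was not called in this fit either, although its groups did not overlap (log2 fold change 2.04, edgeR adjusted p 0.9995). A gene left uncalled here is therefore not shown to be unchanged. Over all 13910 genes tested, 0 were called (percent called 0), 301 (2.16%) had an unadjusted p under 0.05, and the groups did not overlap for 6.74%, and 48.7% had a positive fold change. DESeq2 called 8 genes and none of the 31. The median log2 fold change was -0.03 over the 18 endothelial genes, with a range from -0.75 (Wnt2) to 0.35 (Tek), and -0.04 over the 13 stellate genes, from -0.37 (Ngfr) to 0.46 (Rgs5), against -0.01 over all genes. None of the 31 had an unadjusted p under 0.05.

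Both medians depended on GFP liver 3. Without it, the endothelial median was -0.17, with 16 of 18 genes negative, and the stellate median -0.33, with 11 of 13 negative, and 0 members were called. Without GFP liver 2, the stellate median was 0.31 with 11 of 13 positive, and the endothelial median 0.08. Without both GFP liver 3 and ABHD6 OE liver 1 the medians were -0.17 and -0.20. The direction of both sets between these groups is therefore not fixed by these livers.

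**Figure D2:**
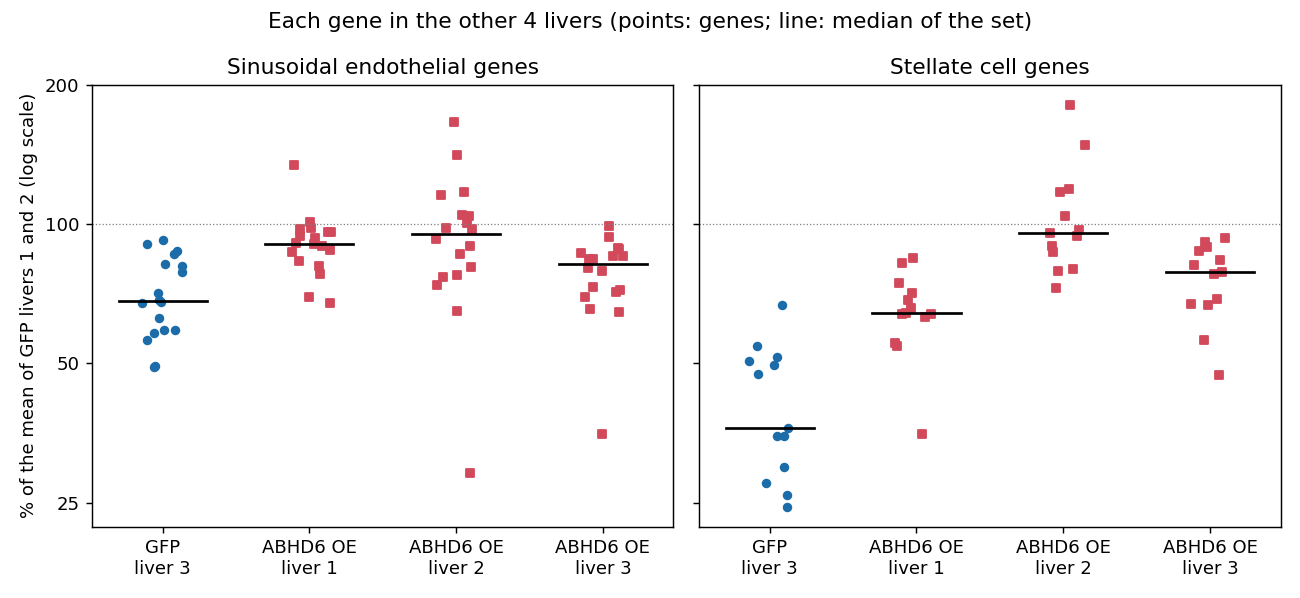
Each gene in GFP liver 3 and ABHD6 OE livers 1 to 3, as a percentage of its mean in GFP livers 1 and 2, on a log axis, with 1 point per gene and a line at the median of the set. In GFP liver 3 the stellate median is 36.3% and the endothelial median 68.3%. The baseline leaves out GFP liver 3, so the points of the ABHD6 OE livers do not compare the groups.

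The spread among livers had a pattern across the genes. GFP liver 3 was the lowest of the 6 livers for 12 of 13 stellate genes and for 10 of 18 endothelial genes, against 24.4% of the 13809 genes with a mean liver count of at least 10. Relative to the mean of GFP livers 1 and 2, its stellate genes lay between 24.5% and 67.0% and its endothelial genes between 49.2% and 92.3%, where the median of all genes was 99.99%. ABHD6 OE liver 1 had a stellate median of 64.2% and an endothelial median of 90.8%, and ABHD6 OE liver 2 had 95.6% and 95.2%. ABHD6 OE liver 3 lay at 78.9% and 82.3%. The baseline leaves out GFP liver 3, so a value under 100% in an ABHD6 OE liver is not a difference between the groups. GFP livers 1 and 2 were the highest of the 6 for 1 and 7 of 13 stellate genes and for 3 and 10 of 18 endothelial genes. ABHD6 OE liver 2 was the highest for 5 genes of either set. Lum, at 67.0%, was the stellate gene least reduced in GFP liver 3.

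Markers of hepatocytes and of Kupffer cells gave other orders of the livers, whereas several other lists were also lowest in GFP liver 3. GFP liver 3 was lowest for 1 of 11 hepatocyte genes and for 1 of 15 Kupffer cell and macrophage genes. Among the Kupffer genes ABHD6 OE liver 2 was highest for 13 of 15 and ABHD6 OE liver 3 lowest for 14 of 15, and their sum ran from 286 to 459 CPM in GFP and from 243 to 578 in ABHD6 OE livers. The activated stellate and myofibroblast genes summed to 229.9, 160.4 and 64.1 CPM in GFP livers and to 75.7, 283 and 89.8 in ABHD6 OE livers, lowest again in GFP liver 3 and highest in ABHD6 OE liver 2. Portal fibroblast and mesothelial genes summed to 38.9, 37.4 and 13.8 and to 22.8, 42.7 and 31.5, lowest in GFP liver 3 as well. So were the sums of zonated endothelial signals (58.9 CPM), smooth muscle genes (5.77) and lymphocyte and neutrophil genes (8.37). The sums of other endothelial genes and of blood genes were lowest in ABHD6 OE liver 3, and that of cholangiocyte genes in ABHD6 OE liver 2. The part of other cells in these differences was not tested.

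Genes that respond to or pair with the 31 members were examined in the same livers. None passed the test in any of these lists: 0 of 21 other endothelial genes (median log2 fold change 0.03), 0 of 11 zonated endothelial signals (-0.11), 0 of 14 other quiescent stellate genes (0.02), 0 of 12 hepatocyte WNT targets (-0.08) and 0 of 17 ligands and receptors paired with members (-0.07). Of the 8 hepatocyte BMP targets, 0 were called and 6 had a positive fold change. Hamp, the hepcidin gene and a BMP target, had the smallest adjusted p of that list and of all genes tested. It was at a log2 fold change of 1.45, with an unadjusted p of 3.25e-05 and an adjusted p of 0.452 in edgeR. Hamp averaged 677 ± 19.0 normalised CPM in ABHD6 OE and 249 ± 33.9 in GFP livers (SD, n = 3). Its groups did not overlap, which held for 6.74% of all genes tested. Bmp2 was at a log2 fold change of -0.04 (SE 0.24). Bmp6, a BMP ligand among the zonated signals, was at 0.67 (SE 0.35), from 3.50 normalised CPM in GFP to 5.59 in ABHD6 OE livers. Neither ligand was called, and the groups overlapped for both. A link of either to Hamp was not tested.

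Between siScramble hepatocytes and GFP livers the 2 sets of members fell to different depths. The fit called 9991 of 14215 genes (70.3%), 4740 (33.3%) higher and 5251 (36.9%) lower in culture. All 31 members were called lower, but 15 of them had too few counts in culture for a test there and passed the filter through the livers alone, so that count is a description of them. These groups differ in tissue against culture and in siRNA. Diet and virus may differ too, since the labels state neither the donor diet nor a vector for GFP. These factors cannot be told apart, and the GFP livers and siScramble cultures are also the controls of the other comparisons. How much of each gene was left is given instead. As a percentage of the GFP liver mean, the median member of the endothelial set was at 4.36% and that of the stellate set at 0.291%, against a median of 93.6% for 12212 protein-coding genes with a mean count of at least 10 in GFP livers. Of those genes, 3.48% were under 1% of liver and 11.2% under 10%.

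**Figure D3:**
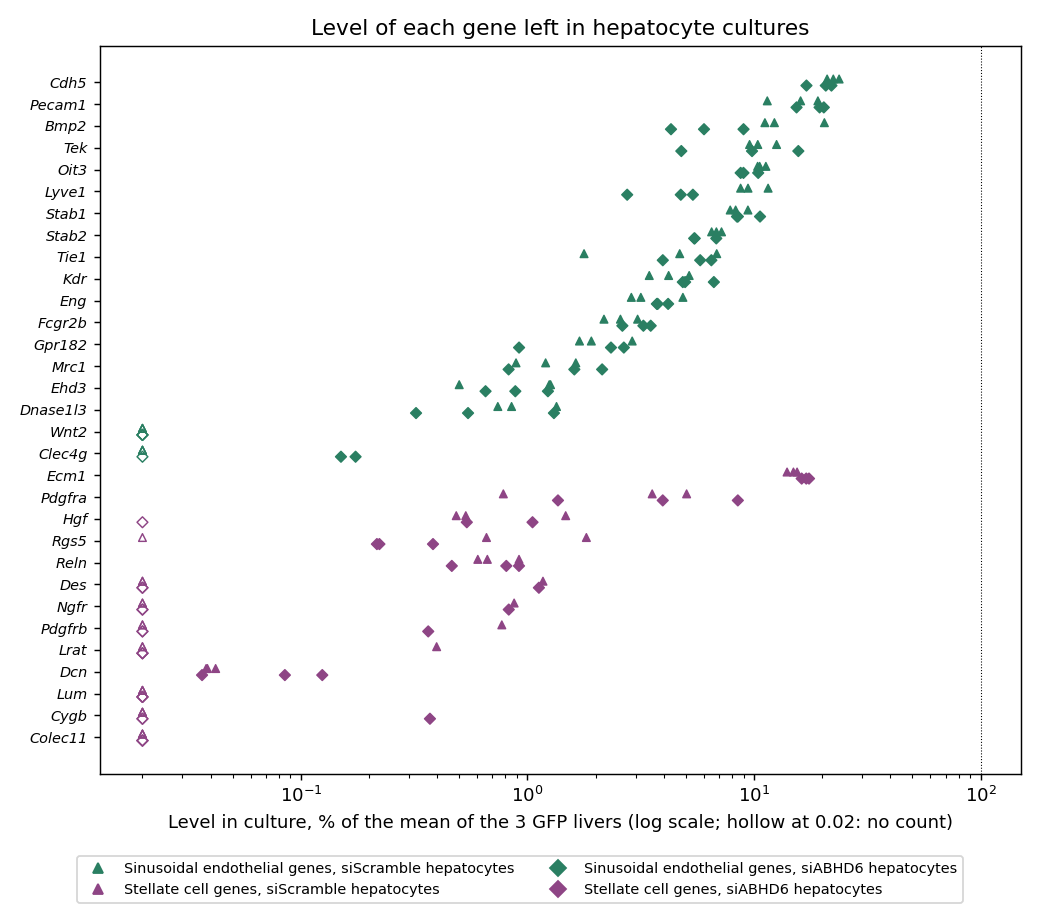
Level of each gene in each culture as a percentage of its mean in the 3 GFP livers, on a log axis, with siScramble libraries as triangles, siABHD6 libraries as diamonds, and hollow points at 0.02 for libraries with no count. Endothelial genes form a gradient from Cdh5 at 22.4% to Wnt2 and Clec4g with no siScramble count, whereas stellate genes other than Ecm1 and Pdgfra lie under 1% of liver in the siScramble means.

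Of the endothelial members, Cdh5, Pecam1 and Bmp2 kept the largest percentages of liver. Cdh5 was at 4.68, 4.40 and 4.97 normalised CPM in siScramble cultures, 22.4% of the GFP liver mean, a log2 fold change of -2.19 (SE 0.29, edgeR adjusted p 0.000437). With library totals alone its log2 fold change was -1.38, so the percentage kept depends on the scaling. Cdh5 was the highest of the endothelial set per length in culture, at 1.11 normalised CPM per kilobase. Pecam1 kept 15.5% and Bmp2 14.6%, at log2 fold changes of -2.71 (SE 0.30) and -2.79 (SE 0.34). Bmp2 was at 3.16, 1.73 and 1.90 normalised CPM, with siScramble culture 1 the highest.

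A middle group kept less. Tek kept 10.8%, Oit3 10.7%, Lyve1 9.89%, Stab1 8.52% and Stab2 6.84%. Stab1 was at 5.58, 5.90 and 6.68 normalised CPM in siScramble cultures, from 99 to 109 counts per library, and Stab2 at 5.02, 5.29 and 4.78. Oit3 was at 2.48, 2.28 and 2.33. Stab1 overlaps Nt5dc2 on the opposite strand, which averaged 93.7 counts in siScramble cultures, so the strand doubt given for Eng holds for it too. The log2 fold changes against liver were -3.58 (SE 0.11) for Stab1, -3.89 (SE 0.14) for Stab2 and -3.24 (SE 0.23) for Oit3.

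The remaining endothelial genes were lower still. Gpr182, with 26 siScramble counts in all, carries that doubt as well, since Zbtb39 on its opposite strand averaged 259.7 counts. Tie1 kept 4.44%, Kdr 4.27%, Eng 3.63%, Fcgr2b 2.60% and Gpr182 2.17%. Eng was at 3.38, 2.00 and 2.21 normalised CPM and Fcgr2b at 1.18, 1.00 and 1.41. Mrc1 kept 1.24%, Ehd3 1.00% and Dnase1l3 0.978%, each on 17 to 26 counts summed over the 3 libraries. Clec4g and Wnt2 had 0 counts in the 3 siScramble libraries. Taking 3 counts over the group as the limit that a count of 0 allows, Clec4g was at least 618-fold lower than in GFP livers and Wnt2 at least 49.95-fold lower. Such limits and intervals cover counting error only. Clec4g had 1, 1 and 0 counts in siABHD6 cultures, and Wnt2 had 0 in all 3.

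The make-up of the endothelial counts differed between liver and culture: Stab2, Stab1 and Eng held 12.4%, 11.9% and 11.7% of them in GFP livers, and Stab1, Stab2 and Cdh5 held 18.2%, 15.2% and 14.1% in siScramble cultures. Cdh5 alone had been 3.55% of the endothelial counts in liver.

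Stellate genes were nearly absent, with 1 exception. Ecm1 was at 18.05, 19.98 and 19.3 normalised CPM in siScramble cultures, 14.8% of the GFP liver mean, on 314 to 359 counts per library, at a log2 fold change of -2.78 (SE 0.39, edgeR adjusted p 0.000615). It supplied 93.1% of all stellate counts in siScramble and 94.2% in siABHD6 cultures, against 24.6% in GFP livers. Without Ecm1, the stellate sum was 2.84, 1.46 and 1.29 CPM in siScramble cultures and 1.71, 1.18 and 2.43 in siABHD6 cultures, where the same 12 genes had summed to 372, 424 and 123 in GFP livers. After scaling, that is 0.356% of liver in siScramble cultures, against 3.90% with Ecm1 and 5.58% for the endothelial sum. By library totals these sums were at 0.608%, 6.65% and 9.65% of liver.

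Of the other 12 stellate genes, Reln kept 0.729% on 15, 10 and 10 counts, Pdgfra 3.13% on 7, 5 and 1, Rgs5 0.827% on 9, 0 and 3, and Hgf 0.832% on 3, 1 and 1. Reln was at 0.846, 0.557 and 0.613 normalised CPM, and Pdgfra at 0.395, 0.278 and 0.0613. Dcn, the gene with most stellate counts in liver, had 1 count in each siScramble library, or 0.0389% of liver with an exact 95% interval from 0.00801% to 0.114% on the pooled counts. Lrat, with 2 counts in all, was at 0.134% (0.0162% to 0.486%), and Pdgfrb, also with 2, at 0.259% (0.0313% to 0.942%). Des and Ngfr had 1 count each, at 0.400% (0.0101% to 2.26%) and 0.292% (0.00737% to 1.65%). Colec11, Cygb and Lum had none, which puts them at least 596-fold, 252-fold and 164-fold lower than in GFP livers.

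Promoters are shown for members with and without counts in culture, chosen after their values were seen: Stab1 and Ecm1 kept 8.52% and 14.8% of liver, and Clec4g and Colec11 had no siScramble count. RefSeq promoter entries (assembly GRCm38.p6, another build than the mm39 of the counts, joined by symbol) existed for 20 of the 31 genes. Shown are the 150 bases before the annotated start, 5′ to 3′ on the gene's strand, with capitals marking matches on either strand to ETS words (CCGGAAG or CAGGAAG), the GATA word (AGATAA) or the TATA word (TATAAA). The stretches are chr14:31168642-31168791 on the minus strand for Stab1, chr8:3720652-3720801 on the minus strand for Clec4g, chr3:95739570-95739719 on the minus strand for Ecm1 and chr12:28623331-28623480 on the minus strand for Colec11.
Stab1: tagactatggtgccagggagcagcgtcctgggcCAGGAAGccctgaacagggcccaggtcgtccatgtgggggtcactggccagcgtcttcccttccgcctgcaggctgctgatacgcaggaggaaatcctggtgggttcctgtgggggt
Clec4g: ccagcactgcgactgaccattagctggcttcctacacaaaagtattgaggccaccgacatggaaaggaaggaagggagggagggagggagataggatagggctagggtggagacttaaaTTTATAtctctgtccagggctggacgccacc
Ecm1: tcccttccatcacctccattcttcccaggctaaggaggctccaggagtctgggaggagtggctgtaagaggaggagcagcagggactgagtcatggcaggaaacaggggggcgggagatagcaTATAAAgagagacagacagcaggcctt
Colec11: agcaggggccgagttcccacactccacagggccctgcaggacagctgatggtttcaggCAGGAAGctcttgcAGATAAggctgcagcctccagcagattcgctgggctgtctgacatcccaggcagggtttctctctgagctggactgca

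Stab1 holds an ETS word and Colec11 an ETS and a GATA word, whereas Ecm1 holds a TATA word on its own strand and Clec4g one on the opposite strand. In 250 bases before the start, an ETS word was found in 2 of 11 endothelial and 2 of 10 stellate promoters, against 17.0% of all 32851 promoters. The GATA word was in 0 of 11 and 2 of 10, against 9.99%, and the TATA word in 1 of 11 and 1 of 10, against 12.4%. Hgf has 2 promoter entries, which makes 10 stellate promoters from 9 genes. A match in these windows is a description of letters only.

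Markers of other cells give the setting of this residue. Among 21 other endothelial genes, the sum was 26.7% of GFP liver after scaling. Of the 12 with enough counts for a test within the cultures, 10 were called lower than in liver and 1 higher, and another 8 entered that fit through the livers alone. That sum rested on Nrp1, Flt4 and Gata4, which averaged 41.3, 36.8 and 22.9 normalised CPM in siScramble cultures, and Flt4, the VEGFR3 gene, was called higher than in liver (log2 fold change 0.52, SE 0.18, edgeR adjusted p 0.0325). Clec14a, Ramp2, Vwf and Ptprb, which entered through the livers alone, averaged 0.0376, 0.0188, 0.0580 and 0.632 normalised CPM against 12.8, 7.33, 8.63 and 59.7 in GFP livers. Nrp1, Flt4 and Gata4 were named after their values were seen.

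The other quiescent stellate genes summed to 2.23% of liver, and 7 of 15, Vipr1 and Sod3 among them, had 0 counts in all siScramble libraries. Of the 5 testable within the cultures, 4 were called lower than in liver, and the other 9 entered the fit through the livers alone. Activated stellate and myofibroblast genes summed to 757% of liver, where of the 7 testable within the cultures 5 were called higher and 2 lower. Another 6 entered through the livers alone, Col1a2, Postn and Loxl1 with 0 siScramble counts. S100a6, Ccn2 and Vim, at 129, 291 and 1048 normalised CPM in siScramble cultures, made up most of that sum and were named after their values were seen. Vim and S100a6 are also expressed by epithelial cells in culture, and their source here was not tested. The Kupffer and macrophage genes summed to 13.5% of liver, nearly all of it Cd68 (62.2 normalised CPM against 10.2 in liver). The Kupffer-defining genes Clec4f and Timd4 averaged 0.0188 and 0 normalised CPM. Only 2 of the 15 genes of that list had enough counts in culture for a test, and 1 of those was called lower and 1 higher than in liver. Blood genes summed to 2.08% and lymphocyte and neutrophil genes to 2.07% of liver. Portal fibroblast and mesothelial genes summed to 11.5%. Other lists were above liver: cholangiocyte genes summed to 1028% and smooth muscle genes to 150%. Of the 4 cholangiocyte genes testable within the cultures, 3 were called higher and 1 lower. Of the 2 such smooth muscle genes, 1 was called higher and 0 lower. Over all genes tested, 33.3% were called higher. The source of these counts was not tested.

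With Abhd6 knocked down in hepatocytes, few members were called. Of the 31 genes, 16 had enough counts in culture for a test, 14 endothelial and 2 stellate. Bmp2 and Lyve1 fell, none rose, and neither stellate gene, Reln or Ecm1, was called. Over all 13449 genes tested, 2075 were called (15.4%), 1051 higher (7.81%) and 1024 lower (7.61%), so 2 of 16 is near the background share. An unadjusted p under 0.05 was found for 27.0% of genes tested. The median log2 fold change was -0.01 over the 14 endothelial genes, against -0.00 over all genes.

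Bmp2 had 56, 31 and 31 counts in siScramble cultures 1 to 3 and 15, 26 and 11 in siABHD6 cultures 1 to 3. As normalised CPM these were 3.16, 1.73 and 1.90 against 0.929, 1.39 and 0.664. The groups did not overlap, which held for 31.1% of all genes tested, and the log2 fold change was -1.18 (SE 0.33, edgeR adjusted p 0.0173). The call was lost without siScramble culture 1 (log2 fold change -0.86, edgeR adjusted p 0.15) and without siABHD6 culture 3 (-0.97, adjusted p 0.0724). It was lost as well in 1 fit over all 12 libraries (adjusted p 0.401).

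Lyve1 had 23, 19 and 16 counts against 5, 10 and 10, or 1.30, 1.06 and 0.981 against 0.310, 0.534 and 0.604 normalised CPM. Again the groups did not overlap, at a log2 fold change of -1.20 (SE 0.39, edgeR adjusted p 0.0406). This call was lost on leaving out any 1 of the 6 libraries, with edgeR adjusted p-values from 0.0620 (without siABHD6 culture 3) to 0.171 (without siABHD6 culture 1), with the log2 fold change between -1.38 and -0.98. It was also lost with no filter on low counts (adjusted p 0.0519), with the replicate block (0.0623) and in 1 fit over all 12 libraries (0.578), and DESeq2 gave it no adjusted p.

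**Figure D4:**
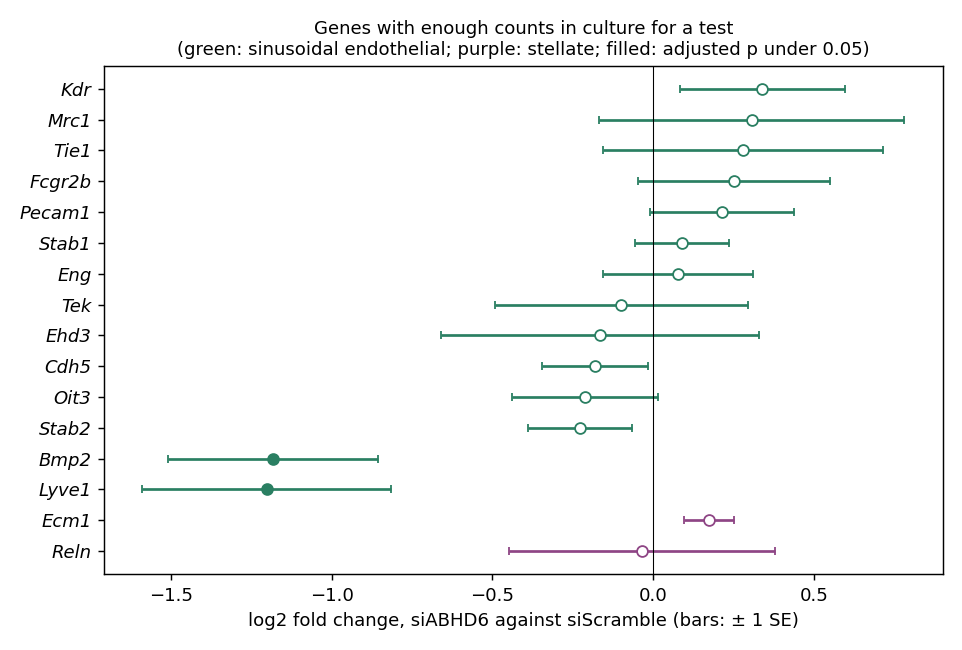
Log2 fold change between siABHD6 and siScramble cultures for the 16 genes with enough counts for a test, with bars of 1 standard error, endothelial genes in green and stellate genes in purple. Bmp2 at -1.18 and Lyve1 at -1.20 are the filled points, with an adjusted p under 0.05, and the other 14 lie between -0.23 and 0.34.

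The other endothelial members were not called. Stab1 was at 7.56, 6.04 and 5.98 normalised CPM in siABHD6 cultures (log2 fold change 0.09, SE 0.15) and Stab2 at 4.03, 4.01 and 5.01 (-0.23, SE 0.16), and for both the groups overlapped. Cdh5 was at 4.34, 4.59 and 3.56 (-0.18, SE 0.17), Oit3 at 1.92, 1.98 and 2.30 (-0.21, SE 0.23), Eng at 2.91, 2.62 and 2.60 (0.08, SE 0.23) and Fcgr2b at 1.61, 1.496 and 1.21 (0.25, SE 0.30). Kdr had the largest positive value, 0.34 (SE 0.26, edgeR adjusted p 0.436).

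Ecm1 was at 22.6, 20.9 and 21.9 normalised CPM with siABHD6 against 18.05, 19.98 and 19.3 with siScramble. The groups did not overlap, but the gene was not called, at a log2 fold change of 0.17 (SE 0.08, edgeR adjusted p 0.144). Reln was at 0.744, 0.427 and 0.846 (-0.03, SE 0.41). The 11 stellate genes without a test had few counts in both groups: Pdgfra had 5, 2 and 11 with siABHD6, Rgs5 1, 2 and 1, Dcn 2, 1 and 3 and Hgf 1, 0 and 2, while Colec11, Lum and Lrat had none. A change in these genes was not detectable at this depth.

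Related genes gave the surroundings of these calls. Over all genes tested in this comparison 15.4% were called, 7.81% higher and 7.61% lower, so a few calls in a short list are description only. Bmp6, the other main endothelial BMP ligand of liver and a member of the zonated signals, fell with siABHD6, from 3.85 to 2.42 normalised CPM (log2 fold change -0.69, SE 0.20, edgeR adjusted p 0.0254), the 1 call among 6 tested genes of that list. Of 6 hepatocyte BMP targets tested, 2 rose and none fell: Id1 by 1.15 (SE 0.32, adjusted p 0.0189) and Id2 by 0.50 (SE 0.16, adjusted p 0.0457) on the log2 scale in edgeR. Of the 16 paired ligands and receptors tested, 3 rose and 4 fell. Among those that rose were Met, the Hgf receptor gene, at a log2 fold change of 0.18, and Fzd5, a WNT receptor gene, at 0.19. Among those that fell, the values were -0.35 for Vegfa, -0.23 for Vegfb and -0.23 for the BMP receptor gene Bmpr2. Of 10 hepatocyte WNT targets, Lect2 (0.45) and Rnf43 (0.38) rose.

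Among stellate-related lists in culture, 2 of 5 quiescent genes tested rose, Cxcl12 by 0.53 (SE 0.15) on the log2 scale, and Col1a1 (1.11, SE 0.28) and Vim (0.10, SE 0.03) rose of 8 activated genes. Of all genes tested, 7.81% were called higher. Col1a1 nevertheless stayed at 3.35 normalised CPM, against 23.9 in GFP livers. None of the 12 other endothelial genes tested was called, 1 of them at an unadjusted p under 0.05, and neither were the 2 Kupffer and macrophage genes tested. Sums of the Kupffer list ran from 82.3 to 89.7 CPM in siScramble and from 68.6 to 87.4 in siABHD6 cultures.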

How the data were processed

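Mouse livers and primary hepatocytes were sequenced in 12 libraries, 3 in each of 4 groups taken from the labels. The deposited table gives the authors' raw counts per gene with no normalization. HISAT2, DESeq2 and the mm39 build are named, per the submitters' processing notes, without versions. The counting program, annotation and strand setting are not given in the sources used here. The deposited FPKM values equal these counts divided by gene length and by 1 number per library, by the authors, and were used for that check only.

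For every comparison, edgeR 4.0.16 (R 4.3.3) was run on the 6 libraries concerned (filterByExpr, TMM, quasi-likelihood F test, Benjamini-Hochberg over all genes tested, adjusted p under 0.05). Normalised CPM uses TMM factors over all 12 libraries, and sums of sets use library totals. Library totals alone moved the median log2 fold change of all genes from -0.03 to 0.80 between cultures and livers. For genes with 0 to 3 counts, pooled ratios carry exact Clopper-Pearson 95% intervals, and 0 counts a floor of 3 counts over the group. The fits were tested on simulated data. Alternatives were RLE and upper-quartile scaling, library totals, DESeq2 1.42.0, voom weights (limma 3.58.1), no filter, a filter of 1 CPM in every library, 1 fit over 12 libraries, all cultures against all livers, a replicate block and leaving out libraries. Python 3.11.15 and matplotlib 3.10.9 made the descriptions and figures.

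Members and gene lists were chosen with earlier results of these data known. All 31 members are named. Values per library are given for members that passed in livers or cultures or are among the 5 highest of their set per length in GFP livers or siScramble cultures, and in other lists at most 4 called genes, or 2 with the smallest p, are named by rule. For the paired ligands and receptors in siABHD6 cultures, more called genes are named than this rule allows. A few genes that the rule would name are not reported here. Whether equal replicate numbers pair libraries was checked by the correlation of their deviations from the group mean: -0.49, 0.47 and -0.20 for livers, at most 0.02 for cultures. No pairing was assumed.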

Additional observations from a re-analysis of the deposited data

How the results depend on the processing

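All liver results for the 31 genes stayed uncalled under every alternative run, and all 31 culture-against-liver directions and calls held except that a filter of 1 CPM in every library left 12 members to call. The number of genes called between livers was 0, and became 2 with no filter, 8 with DESeq2, 4 with 1 fit over all 12 libraries and 1 without GFP liver 3 and ABHD6 OE liver 1. It was 0 on leaving out any 1 liver. The stellate median between livers, -0.04, was 0.16 with limma-voom and 0.14 with the replicate block. For siABHD6 against siScramble, 2075 genes became 41 in 1 fit over 12 libraries, and the cause was not tested. The 2 members called became 1 with no filter, 1 with DESeq2, 0 at 1 CPM in every library, 0 in the fit over 12 libraries, 1 with the replicate block, which lost Lyve1 (adjusted p 0.0623), and 0 to 1 on leaving out 1 library. In the fit over 12 libraries Bmp2 had an adjusted p of 0.401 and Lyve1 0.578. No direction reversed for a called gene.

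Summed sets were in CPM of the library total. The endothelial sum was 594 with TMM and 598 with RLE in GFP livers (453 by totals), 579 and 585 in ABHD6 OE livers (449), 33.2 and 33.0 with siScramble (43.7) and 31.7 and 31.5 with siABHD6 (41.3). The stellate sum was 525 with TMM and 530 with RLE in GFP livers (406 by totals) and 552 and 558 in ABHD6 OE livers (430.0). In culture it was 20.5 and 20.4 with siScramble (27.0) and 23.2 and 23.0 with siABHD6 (30.2). Both scalings widen the gap between livers and cultures. Low counts of the members limit the cultures most: 10 members had at most 3 counts over the 3 siScramble libraries.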

Other observations

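Hepatocyte genes that answer endothelial signals were also low in the cultures. Of the 10 hepatocyte WNT targets with enough counts in culture for a test, 10 were called lower in siScramble hepatocytes than in GFP livers, where edgeR called 36.9% of all genes tested lower. Cyp2e1 was at 28.8 normalised CPM in culture against 10148 in liver, Glul at 70.9 against 1649, and Lgr5 had no siScramble count. Of the 6 such BMP targets 5 were called lower. Hamp, which had too few counts in culture for a test, was at 0.269 against 249 normalised CPM. The ligand genes Wnt2, Wnt9b and Rspo3 had no siScramble count either, while Bmp2 kept 14.6% of liver and Bmp6 was at 3.85 normalised CPM against 3.50 in liver. Hepatocyte genes in general were lower too, 11 of 11, so these lists do not stand apart by their direction.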
